A study of Homo sapiens with 66 samples.

Results

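DNA replication and mitosis genes were a set of 40 genes, found by their Ensembl identifiers among the 57820 genes of the count tables. The list held 21 genes of S phase and DNA replication and 19 genes of mitosis. The genes were chosen by name, and no measured value of the count tables entered the rule. RNA-seq was performed on 66 libraries of THP-1, a human monocytic leukemia cell line, to compare cells deficient in hnRNPC, an RNA-binding protein of the nucleus, in ADAR, an enzyme that deaminates adenosine to inosine in double-stranded RNA, or in both. In study 1, 48 libraries came from a STING-deficient THP-1 clone with a Cas9 transgene, nucleofected with pairs of guide RNAs (gRNAs) and harvested 3, 4 or 5 days later. Its groups of 3 replicates received nontarget gRNA only (CTRL), or hnRNPC, ADAR or GFP gRNA each with nontarget gRNA, or hnRNPC gRNA with ADAR gRNA (ADAR+hnRNPC). CTRL cells treated with IFN-α for 1 day were harvested on day 4. In study 2, 18 libraries came from a wild-type THP-1 clone with a Cas9 transgene, harvested on day 4 with other gRNAs against both genes and 2 replicates per group. Total RNA and the digitonin-soluble, cytosol-enriched fraction were sequenced from CTRL, hnRNPC, ADAR and ADAR+hnRNPC cells, and the insoluble fraction, enriched in nuclei and mitochondria, from hnRNPC cells. Each study used 1 clone, so clone and study cannot be told apart.

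Before S phase, ORC1, CDC6 and CDT1 help to load the MCM2 to MCM7 helicase onto origins of replication. CDC45 and the GINS complex then activate the helicase, cyclin E drives entry into S phase, PCNA clamps the polymerase to its template, and RRM1, RRM2 and TYMS supply deoxynucleotides. Many of these genes are transcribed by E2F factors at the start of S phase, whereas genes of mitosis are transcribed later, in G2 phase, by complexes with FOXM1 and B-MYB that bind promoters with the cell cycle homology element TTTGAA. The mitotic genes include cyclins and CDK1, the kinases PLK1, AURKA and AURKB, the spindle checkpoint genes BUB1, BUB1B and TTK, and the kinesins KIF11 and KIF20A. In a culture in which all cells divide, RNA of both sets is abundant.

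The promoters of the 2 sets held different motifs. RefSeq promoter sequences (GRCh38.p14) were given for 33 of the 40 genes, and the 250 bases before each gene's start were searched on both strands. The E2F motifs TTTCCCGC or TTTGGCGC were found in 9 of 18 replication genes (50.0%), in 0 of 15 mitosis genes and in 2.36% of 27305 genes. TTTGAA was found in 1 of 18 replication genes, RRM1, in 8 of 15 mitosis genes (53.3%) and in 16.1% of all genes. CCAAT was found in 13 of 18 (72.2%) and 13 of 15 (86.7%), against 37.0% of all genes. These are letter matches in a window. They were not tested for binding. No promoter sequence was used for AURKA, BIRC5, CCNE2, FOXM1, MCM4, MCM5 and TTK. The last 130 bases before the start are shown for the 4 genes that fell at least 2-fold in ADAR+hnRNPC cells on day 5 (MCM3, RRM2, BUB1B and KIF20A) and for examples of each set, with E2F motifs, TTTGAA and CCAAT, or their reverse complements, in capitals. For MCM3, an E2F motif lay further upstream than the bases shown.
MCM3, chr6:52284743-52284872, minus strand: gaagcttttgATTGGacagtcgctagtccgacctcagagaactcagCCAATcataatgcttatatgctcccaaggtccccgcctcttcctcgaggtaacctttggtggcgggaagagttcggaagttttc
RRM2, chr2:10122609-10122738, plus strand: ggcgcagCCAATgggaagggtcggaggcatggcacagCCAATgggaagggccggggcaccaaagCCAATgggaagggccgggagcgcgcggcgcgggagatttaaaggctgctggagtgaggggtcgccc
PCNA, chr20:5126623-5126752, minus strand: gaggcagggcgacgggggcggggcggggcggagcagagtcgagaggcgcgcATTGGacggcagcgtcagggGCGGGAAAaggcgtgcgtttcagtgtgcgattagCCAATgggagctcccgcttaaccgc
CDT1, chr16:88803659-88803788, plus strand: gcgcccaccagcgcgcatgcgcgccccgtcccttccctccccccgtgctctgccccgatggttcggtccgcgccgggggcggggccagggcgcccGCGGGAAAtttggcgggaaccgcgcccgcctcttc
E2F1, chr20:33686386-33686515, minus strand: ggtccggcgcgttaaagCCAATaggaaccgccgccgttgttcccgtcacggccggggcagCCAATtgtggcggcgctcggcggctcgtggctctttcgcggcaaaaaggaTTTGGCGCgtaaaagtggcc
BUB1B, chr15:40160939-40161068, plus strand: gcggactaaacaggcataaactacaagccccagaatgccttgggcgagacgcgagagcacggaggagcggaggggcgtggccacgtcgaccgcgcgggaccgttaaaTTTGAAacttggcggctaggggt
KIF20A, chr5:138178982-138179111, plus strand: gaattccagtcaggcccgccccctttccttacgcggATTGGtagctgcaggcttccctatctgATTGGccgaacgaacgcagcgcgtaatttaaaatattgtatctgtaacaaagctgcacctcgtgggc
CCNB2, chr15:59105016-59105145, plus strand: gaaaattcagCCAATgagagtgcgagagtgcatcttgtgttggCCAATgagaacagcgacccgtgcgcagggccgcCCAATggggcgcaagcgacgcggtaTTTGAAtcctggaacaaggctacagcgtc
CDC20, chr1:43358851-43358980, plus strand: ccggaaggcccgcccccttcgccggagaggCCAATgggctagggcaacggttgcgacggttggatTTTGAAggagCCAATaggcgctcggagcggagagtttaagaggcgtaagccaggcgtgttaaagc

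Gene counts per library ranged from 95107690 to 152829008 in study 1 and from 49666958 to 73873756 in study 2. The lowest count of any of the 40 genes in any library was 1963 in study 1 and 1034 in study 2. All 40 genes passed the filter on low counts in both studies. Of the monocytic markers, CD33, LYZ, SPI1, CSF1R, FCGR1A and ITGAM were above 8 CPM (counts scaled to library size) in every library, MPO was between 2.96 and 11.03 CPM, CEBPA and CD14 were at or below 8.10 and 4.22 CPM, and CD68 reached 0.284 CPM at most. T cell, epithelial and fibroblast markers were below 1 CPM in every library, as were CD79A and MS4A1. HNRNPC, the targeted gene, measured 310.3 to 447 CPM in study 1 libraries with hnRNPC gRNA and 725 to 847 CPM in the others. ADAR RNA in study 1 measured 356 to 381, 349 to 375 and 374 to 395 CPM in ADAR cells on days 3, 4 and 5, against 413 to 421, 392 to 411 and 364 to 402 CPM in CTRL cells, so that it was lower without overlap on days 3 and 4 and overlapped on day 5. It measured 348 to 360 CPM in ADAR+hnRNPC cells on day 3 and 1197 to 1617 CPM on day 5. In study 2, total RNA held 433 and 562 CPM of ADAR in ADAR cells against 843 and 961 CPM in CTRL cells. ADAR+hnRNPC cells held 788 and 964 CPM of ADAR in total RNA and overlapped with CTRL cells. HNRNPC measured 450 and 489 CPM in hnRNPC and 429 and 515 CPM in ADAR+hnRNPC total RNA of study 2. CTRL total RNA held 642 and 894 CPM of HNRNPC. Exons of 13 of the 40 genes shared bases with another annotated gene. The share was 10% or more for TYMS (39.9% with ENOSF1), CCNE2 (37.0% with INTS8), MCM2 (23.6%), FOXM1 (15.9%) and PLK1 (11.6%), on the opposite strand each time. As the use of strand in counting was not given in the sources used here, the neighbour may have altered the counts of these 5 genes. The direction was not tested.

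In CTRL cells of study 1 all 40 genes were well expressed. Per kilobase of exon, the median over 9 CTRL libraries was highest for CDC20, the activator of the anaphase-promoting complex, at 345 CPM per kb (range 260.5 to 407), followed by MCM3 at 160.0 (149 to 219) and TOP2A, a DNA topoisomerase, at 159 (150.0 to 172). The last pair overlapped. The lowest levels per kilobase were those of E2F2 at 5.74 (4.74 to 6.29) and FOXM1 at 7.78 (6.90 to 8.94). From day 3 to day 5 in CTRL cells, 3 genes rose and 7 fell in the quasi-likelihood test of edgeR and Benjamini-Hochberg adjustment (adjusted p at most 0.05), where 12.7% of all 13193 genes tested rose and 15.8% fell. Called, here and below, means adjusted p at most 0.05 with a change of at least 2-fold, which held for 0.682% of all genes and for none of the 40. MCM3 had the largest change, from 798, 797 and 791 CPM on day 3 to 557, 560.0 and 543 CPM on day 5 (log2 fold change −0.52 ± 0.04 SE). Comparisons of targeted cells were therefore made with CTRL cells of the same day. With DESeq2's size factors in place of TMM, 5 genes rose and 6 fell.

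In ADAR+hnRNPC cells on day 5, both sets were lower than in CTRL cells. Of the 40 genes, 32 (80.0%) fell in edgeR's quasi-likelihood test, where 34.2% of all genes tested fell, and 3 rose, where 40.2% rose. Of the 21 replication genes, 15 fell with a median log2 fold change of −0.61, and of the 19 mitosis genes 17 fell with a median of −0.51, against a median of 0.05 over all genes. Called were 4 of the 40, BUB1B, KIF20A, RRM2 and MCM3, against 15.5% of all genes. Fewer cycling cells and less RNA per cell cannot be told apart in bulk RNA. The study describes the replicates of study 1 as independent experiments, so that its p-values measure the spread between experiments. The main model did not pair libraries by replicate number, and counts that changed with that number as a block are given below.

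**Figure D1:**
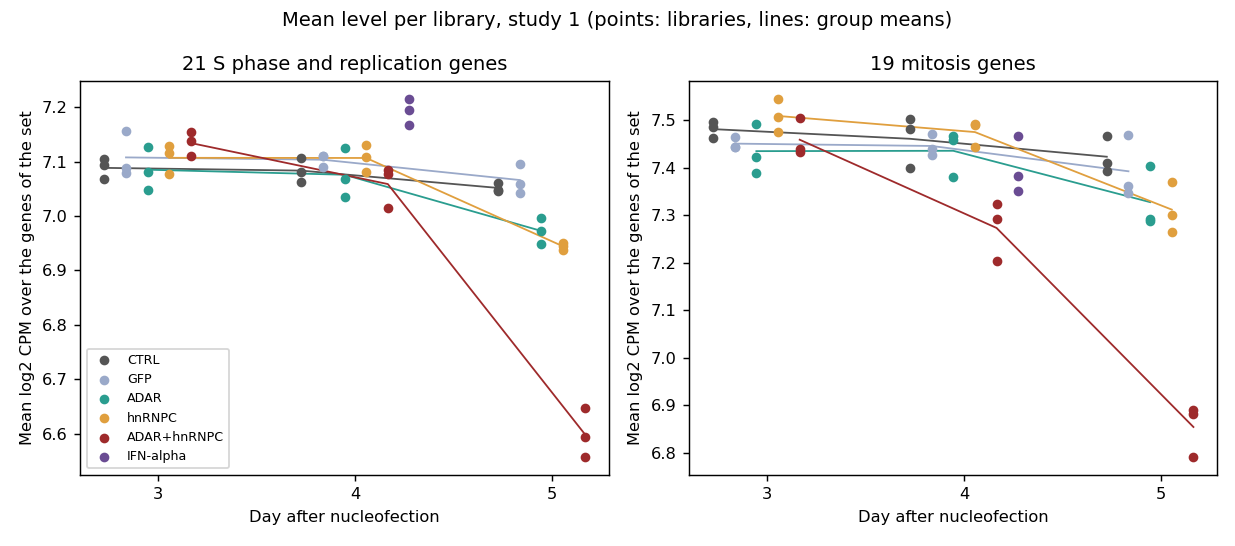
Mean log2 CPM over the 21 S phase and replication genes (left) and the 19 mitosis genes (right) on the vertical axes, by day after nucleofection in study 1. Each point is 1 library and lines join group means. The 3 ADAR+hnRNPC libraries of day 5, at 6.56 to 6.65 (left) and 6.79 to 6.89 (right), lay below every other library in both panels.

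Averaged over the replication genes, the mean log2 CPM of a library was 7.05 to 7.06 in the 3 CTRL libraries of day 5 and 6.56 to 6.65 in the ADAR+hnRNPC libraries. Averaged over the mitosis genes, it was 7.39 to 7.47 in CTRL and 6.79 to 6.89 in ADAR+hnRNPC libraries. The groups did not overlap in either set. Leaving out any 1 library of these groups left 30 to 32 of the 40 genes lower and 4 to 5 called.

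Of the genes that load the helicase, CDT1 and ORC1 rose and CDC6 did not pass the test. CDT1, a licensing factor that is degraded once S phase begins, measured 95.7, 79.8 and 92.5 CPM in CTRL libraries and 123, 125 and 114 CPM in ADAR+hnRNPC libraries of day 5, and rose (log2 fold change 0.43 ± 0.10 SE, adjusted p = 0.000352). CDT1 also rose in GFP cells of day 5 against CTRL cells (log2 fold change 0.34). With GFP cells as the control group, fewer of the 40 genes rose in ADAR+hnRNPC cells. ORC1, a subunit of the origin recognition complex, measured 108, 110.4 and 117 CPM in CTRL and 146, 152 and 149 CPM in ADAR+hnRNPC libraries (0.42 ± 0.04 SE, adjusted p = 3.11e-12). CDC6, which recruits the helicase together with CDT1, measured 125 to 135 CPM in CTRL and 129.6 to 135 CPM in ADAR+hnRNPC libraries, and did not pass the test (0.02 ± 0.04 SE). E2F2, a transcription factor of the E2F family, was the only other gene of the 40 that rose, from 25.9, 28.7 and 29.3 CPM to 32.1, 31.3 and 30.6 CPM (0.16 ± 0.07 SE, adjusted p = 0.0344). E2F1 did not pass, at 66.5, 62.7 and 63.3 CPM in CTRL and 66.1, 62.1 and 60.4 CPM in ADAR+hnRNPC libraries (−0.03 ± 0.06 SE). ORC1 and CDC6 are described after their values were seen.

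Of the helicase subunits, MCM2, MCM3, MCM4, MCM6 and MCM7 fell and MCM5 did not pass the test (log2 fold change −0.11 ± 0.06 SE), although its libraries did not overlap. MCM3 measured 557, 560.0 and 543 CPM in CTRL and 263, 269 and 268 CPM in ADAR+hnRNPC libraries, which was 2.08-fold lower (−1.05 ± 0.04 SE, adjusted p = 4.28e-22). MCM4 measured 714, 732 and 701 CPM in CTRL and 415, 409.8 and 389.7 CPM in ADAR+hnRNPC libraries (−0.82 ± 0.03 SE). MCM2 measured 415, 411 and 413 CPM in CTRL and 318, 318 and 282 CPM in ADAR+hnRNPC libraries (−0.43 ± 0.06 SE). GINS1, a subunit of the GINS complex, fell from 95.0, 99.6 and 87.3 CPM to 55.0, 51.4 and 53.3 CPM (−0.82 ± 0.05 SE). GINS2 fell by 0.75 and CDC45, which joins GINS on the helicase, by 0.13 on the log2 scale.

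The genes of the replication fork, of nucleotide supply and of S phase entry were among those with the largest changes. RRM2, the small subunit of ribonucleotide reductase, measured 120.4, 118 and 128 CPM in CTRL and 54.5, 55.7 and 59.9 CPM in ADAR+hnRNPC libraries, 2.15-fold lower (log2 fold change −1.11 ± 0.05 SE, adjusted p = 8.15e-20). RRM1, the large subunit, fell by 0.73 and TYMS, thymidylate synthase, by 0.66 on the log2 scale. PCNA measured 164, 169 and 171 CPM in CTRL and 95.0, 84.5 and 89.9 CPM in ADAR+hnRNPC libraries (−0.91 ± 0.06 SE, adjusted p = 5.09e-16). CCNE1, cyclin E1, measured 32.8, 33.3 and 35.8 CPM in CTRL and 18.02, 16.4 and 17.2 CPM in ADAR+hnRNPC libraries (−0.98 ± 0.06 SE, adjusted p = 1.93e-16). In all of these genes every ADAR+hnRNPC library was below every CTRL library.

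**Figure D2:**
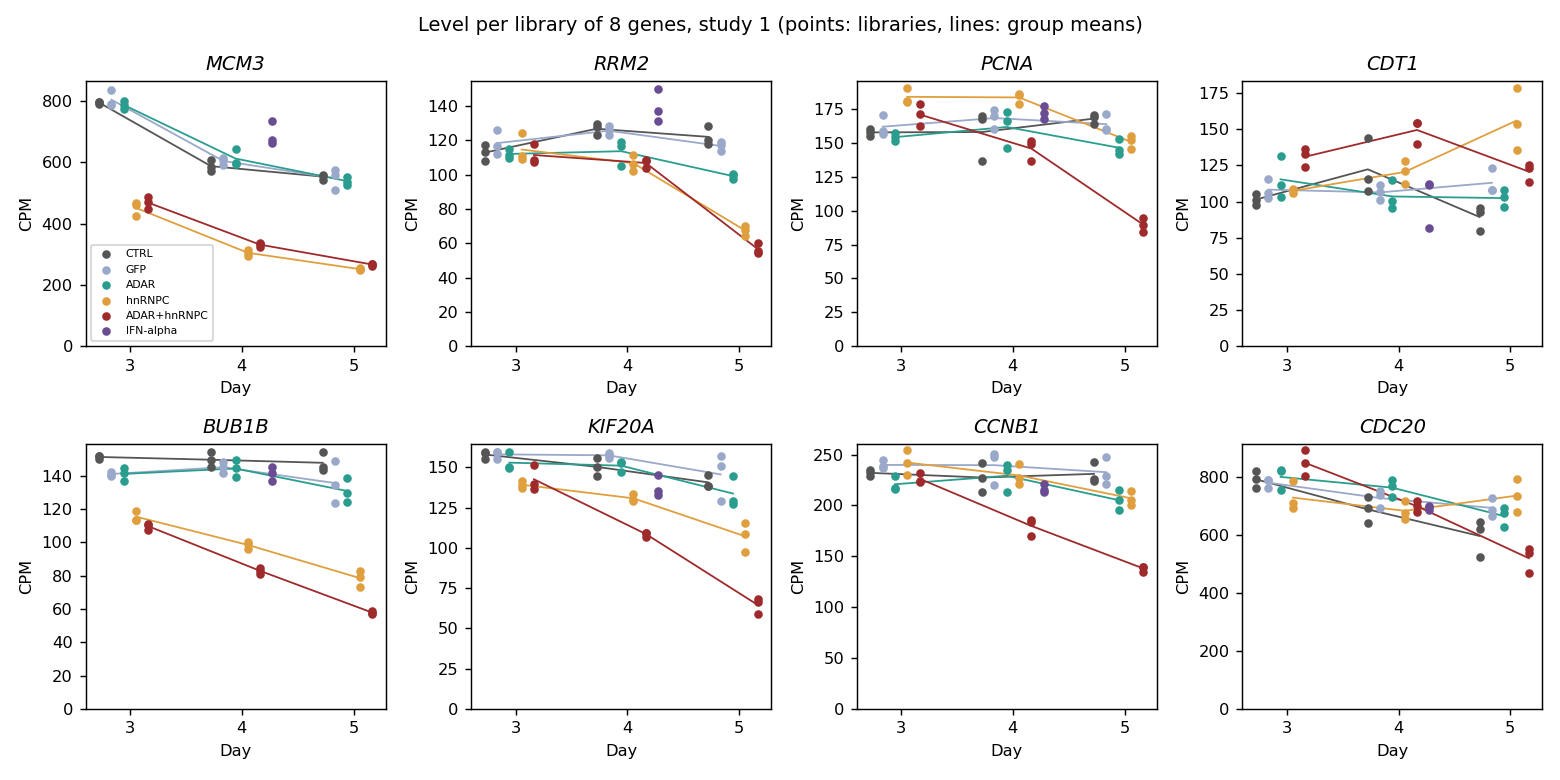
Level in CPM (vertical axes) of 4 replication genes (top) and 4 mitosis genes (bottom) in each library of study 1, by day. Points are libraries and lines join group means. MCM3 and BUB1B were lower in hnRNPC and ADAR+hnRNPC cells from day 3 on, while RRM2, PCNA, KIF20A and CCNB1 were lowest in ADAR+hnRNPC cells on day 5.

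Among the mitosis genes, the 6 largest changes of day 5 were those of BUB1B, KIF20A, TOP2A, KIF11, CCNB1 and CENPE. BUB1B, the checkpoint kinase BUBR1, measured 146, 154 and 144 CPM in CTRL and 59.0, 57.7 and 56.9 CPM in ADAR+hnRNPC libraries, 2.55-fold lower (log2 fold change −1.35 ± 0.05 SE, adjusted p = 4.05e-24). KIF20A, a kinesin of cytokinesis, measured 138, 145 and 138 CPM in CTRL and 68.4, 66.4 and 58.9 CPM in ADAR+hnRNPC libraries, 2.18-fold lower (−1.12 ± 0.06 SE, adjusted p = 5.11e-19). TOP2A fell from 956, 1054 and 1083 CPM to 570.4, 551 and 492 CPM (−0.94 ± 0.06 SE). These 3 genes act in different steps, from chromosome condensation to cell division. KIF11, a spindle kinesin, fell from 182, 195 and 207 CPM to 115, 109.8 and 112 CPM (−0.79 ± 0.06 SE). CCNB1, cyclin B1, fell from 224, 243 and 226 CPM to 139.9, 139 and 135 CPM (−0.74 ± 0.05 SE). CENPE, a kinesin of the kinetochore, fell from 179, 206 and 212 CPM to 117, 122 and 118 CPM (−0.74 ± 0.12 SE).

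Other mitosis genes fell by less. CDK1, the kinase that cyclin B activates, fell from 272, 279.9 and 269.7 CPM to 221, 197 and 190.2 CPM (log2 fold change −0.43 ± 0.05 SE). FOXM1, a transcription factor of G2 phase, fell from 38.3, 39.3 and 36.3 CPM to 30.2, 31.6 and 30.8 CPM (−0.30 ± 0.07 SE). CDC20 was the only gene that fell while its libraries overlapped, at 621, 645 and 524 CPM in CTRL and 538, 551 and 470.1 CPM in ADAR+hnRNPC libraries (−0.20 ± 0.07 SE). MKI67, the antigen Ki-67 of cycling cells, and AURKB, a kinase of the chromosomal passenger complex, did not pass the test. In both genes, every ADAR+hnRNPC library was nevertheless below every CTRL library. MKI67 measured 239, 243 and 245 CPM in CTRL and 185, 232 and 204 CPM in ADAR+hnRNPC libraries (−0.23 ± 0.17 SE, adjusted p = 0.235). Its SE was the largest among the 40 genes, so that this comparison was the least precise.

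In hnRNPC cells, the same 40 genes moved in both directions. These comparisons and those of ADAR+hnRNPC cells share the CTRL libraries of each day, so that their values are given side by side and no overlap between them is counted. On day 5, 19 of the 40 fell and 11 rose in edgeR's quasi-likelihood test, where 31.2% of all genes fell, 34.6% rose and 7.68% were called. Without a filter on low counts, 20 fell and 7 rose. Of the replication genes 10 fell and 7 rose with a median log2 fold change of −0.06, and of the mitosis genes 9 fell and 4 rose with a median of −0.15, against a median of 0.03 over all genes. MCM3 was the only gene called, at 249, 251 and 254 CPM against 557, 560.0 and 543 CPM in CTRL libraries, 2.20-fold lower (−1.14 ± 0.04 SE, adjusted p = 2.46e-22).

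The falls of hnRNPC cells were led by MCM3, BUB1B, RRM2, GINS1, MCM4 and CENPE. BUB1B measured 73.4, 82.9 and 79.4 CPM on day 5 (log2 fold change −0.91 ± 0.05 SE), and RRM2 measured 64.1, 67.9 and 70.2 CPM (−0.86 ± 0.05 SE), each below every CTRL library. GINS1 measured 57.4, 61.2 and 60.5 CPM (−0.65 ± 0.05 SE), MCM4 measured 469, 478 and 460.1 CPM (−0.61 ± 0.03 SE), and CENPE measured 109.5, 146 and 145 CPM (−0.58 ± 0.12 SE). KIF20A fell less, to 109, 115 and 97.5 CPM (−0.39 ± 0.06 SE). Of the genes with a large fall in ADAR+hnRNPC cells, PCNA fell by 0.16 on the log2 scale in hnRNPC cells, at 145, 155 and 152 CPM, and CCNE1 by 0.32, at 27.0, 26.7 and 28.1 CPM. TOP2A fell to 782, 905 and 869 CPM (−0.28 ± 0.06 SE), KIF11 to 149.7, 172 and 170.0 CPM (−0.25 ± 0.06 SE) and CCNB1 to 201, 215 and 206 CPM (−0.16 ± 0.05 SE).

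The genes that rose in hnRNPC cells on day 5 were led by CDT1, which measured 178, 136 and 154 CPM against 95.7, 79.8 and 92.5 CPM in CTRL libraries, 1.75-fold higher (log2 fold change 0.80 ± 0.11 SE, adjusted p = 2.63e-08). E2F2 measured 37.8, 37.2 and 40.7 CPM (0.46 ± 0.07 SE) and E2F1 87.5, 75.5 and 80.1 CPM (0.34 ± 0.06 SE). ORC1 rose by 0.28 on the log2 scale and MCM2 by 0.15, at 486, 444 and 443 CPM. Of the mitosis genes, CDC20 rose to 793, 733 and 681 CPM (0.30 ± 0.07 SE) and AURKA, a kinase of spindle poles, to 182, 188 and 174 CPM from 148, 155 and 143 CPM (0.29 ± 0.05 SE). BIRC5, which encodes survivin, and AURKB each rose by 0.26 on the log2 scale. CDK1 measured 279, 301 and 265 CPM (0.04 ± 0.05 SE), FOXM1 43.2, 38.8 and 38.2 CPM (0.08 ± 0.07 SE) and MKI67 197, 249.7 and 295 CPM (0.03 ± 0.17 SE). These 3 did not pass the test and overlapped with CTRL libraries. CDT1, CDC20 and E2F1 also rose in GFP cells of day 5, each by less than in hnRNPC cells.

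**Figure D3:**
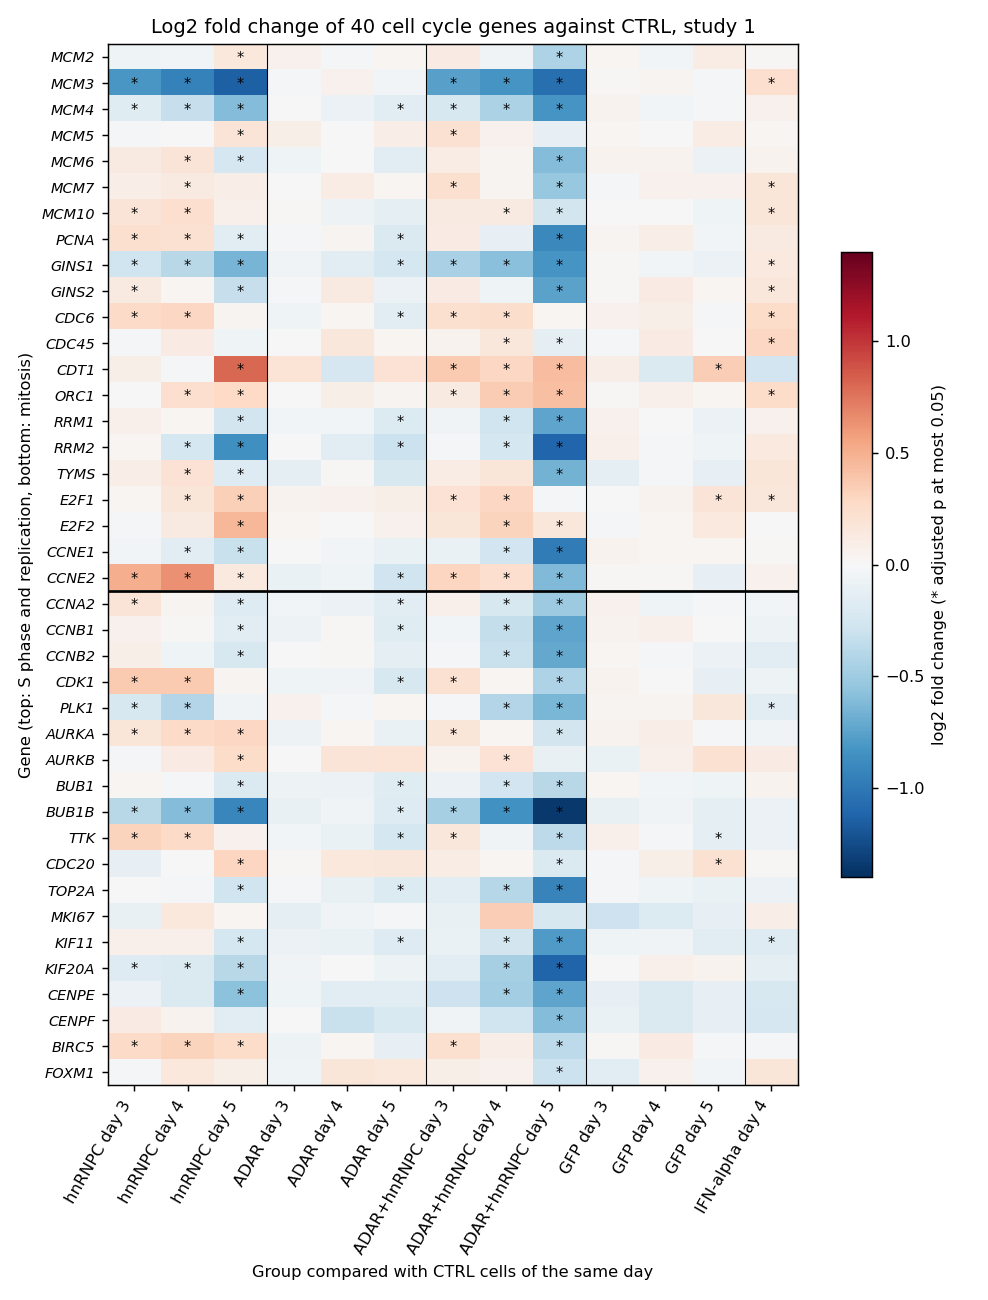
Log2 fold change of the 40 genes (rows, S phase and replication above the line, mitosis below) in 13 comparisons with CTRL cells of the same day (columns), study 1. Red is higher and blue lower than CTRL, and a star marks an adjusted p of at most 0.05. The column of ADAR+hnRNPC cells on day 5 is blue for 32 genes with a star, and MCM3, MCM4, GINS1 and BUB1B are blue in all 6 columns with hnRNPC gRNA.

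The earlier days differed from day 5. In hnRNPC cells on day 3, 10 genes rose and 6 fell, where 18.4% and 21.1% of all genes did and 1.02% were called, and on day 4, 13 rose and 8 fell, where 26.7% and 26.8% did and 3.18% were called. Without a filter on low counts, 4 rose and 6 fell on day 3, and 8 rose and 8 fell on day 4. None of the 40 was called on either day. CCNE2, cyclin E2, had the largest rise, at 96.7, 92.1 and 93.2 CPM on day 3 against 70.9, 63.9 and 63.2 CPM in CTRL libraries (log2 fold change 0.51 ± 0.06 SE), and at 109, 111 and 105 CPM on day 4 against 66.7, 73.9 and 66.7 CPM (0.64 ± 0.06 SE). Its exons share bases with INTS8. CDK1 measured 326, 331 and 329 CPM on day 3 against 257, 252 and 255 CPM (0.37 ± 0.05 SE), and 353, 341 and 333 CPM on day 4 against 249, 271 and 277 CPM (0.37 ± 0.05 SE). CDC6, TTK, BIRC5, AURKA, PCNA and MCM10 rose on both days, by 0.17 to 0.31 on the log2 scale. CCNE2, TTK, BIRC5 and MCM10 are named after their values were seen.

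MCM3, BUB1B, GINS1 and MCM4 fell on all 3 days in hnRNPC cells. MCM3 measured 462, 468 and 424 CPM on day 3 against 798, 797 and 791 CPM in CTRL libraries (log2 fold change −0.82 ± 0.04 SE), and 314, 304 and 296 CPM on day 4 against 583, 607 and 573 CPM (−0.95 ± 0.04 SE). BUB1B measured 114, 119 and 114 CPM on day 3 against 150.0, 152 and 152 CPM (−0.39 ± 0.05 SE), and 100.1, 96.3 and 99.0 CPM on day 4 against 146, 154 and 149 CPM (−0.60 ± 0.05 SE). GINS1 fell by 0.28 and 0.39 and MCM4 by 0.17 and 0.33 on the log2 scale on days 3 and 4. In these 4 genes every hnRNPC library lay below every CTRL library of its day. The same genes were also lower on both days in ADAR+hnRNPC cells, MCM3 by 0.76 and 0.83, BUB1B by 0.46 and 0.85, GINS1 by 0.45 and 0.58 and MCM4 by 0.22 and 0.44 on the log2 scale, each passing the test.

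In ADAR+hnRNPC cells on day 3, 11 genes rose and 4 fell, where 14.9% and 15.5% of all genes did and 1.22% were called. The 4 that fell were MCM3, MCM4, GINS1 and BUB1B, and 7 fell with the replicate number as a block in the model. Without a filter on low counts, 2 rose and 5 fell. On day 4, 9 rose and 16 fell, where 30.3% and 28.3% did and 4.91% were called. Of the replication genes 8 rose and 6 fell with a median log2 fold change of 0.04, while of the mitosis genes 1 rose, AURKB, and 10 fell with a median of −0.26. No gene was called on day 3 or day 4.

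The change of each effect from day 3 to day 5 was tested as a difference of differences. In ADAR+hnRNPC cells the effect moved down in 35 of 40 genes and up in 1, ORC1, where it moved down in 25.4% and up in 31.4% of all genes and 10.2% were called. The median change was −0.54 for replication and −0.59 for mitosis genes on the log2 scale, against 0.04 over all genes. RRM2 and PCNA were called. RRM2 measured 109, 108 and 118 CPM on day 3 against 113, 108 and 117 CPM in CTRL libraries, and its effect changed by −1.09 ± 0.08 (SE). PCNA measured 179, 163 and 172 CPM on day 3 against 160.2, 156 and 158 CPM in CTRL libraries, and its effect changed by −1.02 ± 0.09 (SE). MCM3, low from day 3 on, changed by −0.29 ± 0.06 (SE). In hnRNPC cells the effect moved down in 23 genes and up in 7, where it did so in 24.5% and 25.3% of all genes and 5.48% were called. None of the 40 was called, RRM2 changed most (−0.88 ± 0.08 SE) and CDT1 changed most upward (0.72 ± 0.15 SE).

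Whether the effect of both gRNAs exceeded the sum of the single effects on the log2 scale was tested as an interaction within the 12 libraries of a day. On day 5 the interaction was negative at an adjusted p of at most 0.05 in 26 of 40 genes, 13 of each set, and positive in none, where 24.8% of all genes passed in each direction and 6.22% were called. Its median was −0.28 for replication and −0.37 for mitosis genes, against −0.02 over all genes, and none of the 40 was called. CDC20 (−0.66 ± 0.12 SE), KIF20A (−0.66 ± 0.10 SE), MCM7 (−0.64 ± 0.07 SE) and PLK1, a kinase of mitotic entry (−0.62 ± 0.10 SE), had the largest values. CDC20, MCM2, CDT1, AURKA, BIRC5, E2F1 and E2F2 rose in hnRNPC cells and had a negative interaction. MCM3 was not among the 26. With DESeq2, the replicate block or all libraries of study 1 in the model, 1 gene passed in the positive direction. Leaving out any 1 library gave 24 to 28 negative genes.

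On day 4 the interaction was negative in 7 of 40 genes, 2 of replication and 5 of mitosis, and positive in CDT1 only, where 2.62% of all genes passed in the negative and 5.29% in the positive direction and 0.932% were called. The 7 were CCNB1, CCNE2, CDK1, KIF20A, AURKA, RRM1 and BIRC5, between −0.36 and −0.24 on the log2 scale. The count depended on the libraries and the model, with 1 to 12 negative genes when 1 library was left out, 15 with DESeq2, 15 with all libraries in the model, 18 with the replicate block and 3 without a filter. No gene was called.

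In ADAR cells the changes were small. On day 3 no gene passed the test, and 1 was below 0.05 by unadjusted p, where 0% of all genes rose, 0% fell and 0% were called. On day 4 none passed, with 11 below 0.05 by unadjusted p, where 0.887% rose, 0.227% fell and 0.0682% were called. With the replicate block, 1 gene rose and 1 fell on day 4. On day 5, 15 of 40 fell and none rose, where 5.03% of all genes fell, 7.09% rose and 0.296% were called. RRM2 fell most, at 99.6, 97.4 and 100.5 CPM against 120.4, 118 and 128 CPM in CTRL libraries (log2 fold change −0.30 ± 0.05 SE, adjusted p = 0.000466), and none was called. The replicate block added 1 gene that rose on day 5. The count fell to 6 without CTRL day 5 replicate 2 and to 7 without ADAR day 5 replicate 3, and against GFP cells as the control group 3 genes fell.

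GFP cells, a second control group, were compared with CTRL cells. On day 3 none of the 40 passed, with 1 below 0.05 by unadjusted p, where 0.0379% of all genes rose, 0% fell and 0.0227% were called. On day 4 none passed, with 3 below 0.05 by unadjusted p, where 0.0303% rose, 0% fell and 0% were called. On day 5, CDT1, CDC20 and E2F1 rose by 0.34, 0.22 and 0.18 on the log2 scale and TTK fell by 0.14, where 7.90% of all genes rose, 2.09% fell and 0.250% were called. With DESeq2's size factors 1 rose and 1 fell, and with the replicate block 3 fell. CDT1 measured 123, 108 and 108 CPM in GFP and 123, 125 and 114 CPM in ADAR+hnRNPC libraries of day 5, with log2 fold changes of 0.34 and 0.43 over CTRL cells.

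IFN-α raised some replication genes on day 4. Of the 21, 9 rose and none fell, with a median log2 fold change of 0.14, and of the 19 mitosis genes none rose and 2 fell, with a median of −0.08, where 10.9% of all genes rose, 9.65% fell and 1.32% were called. CDC45 measured 58.1, 63.8 and 61.6 CPM in CTRL and 76.9, 76.4 and 71.7 CPM in IFN-α libraries (0.29 ± 0.05 SE). ORC1, CDC6 and MCM3 rose by 0.26, 0.25 and 0.23 on the log2 scale, and KIF11 and PLK1 fell by 0.19 and 0.16. MCM3, which was lower in ADAR+hnRNPC cells, measured 671, 734 and 662 CPM in IFN-α libraries against 583, 607 and 573 CPM in CTRL libraries. None of the 40 was called. With all genes kept 4 rose and 1 fell, and with the replicate block 6 fell.

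Other genes of the same pathways were read from longer lists. Of 43 other replication genes tested, 35 fell and 7 rose in ADAR+hnRNPC cells on day 5, with a median log2 fold change of −0.28, where 34.2% and 40.2% of all genes did. DSCC1 (−1.08 ± 0.08 SE), a subunit of a clamp loader, and DUT (−1.03 ± 0.06 SE), which removes dUTP, were called, where 15.5% of all genes were. POLA2, a subunit of the primase complex, rose by 0.67, ORC5 by 0.57 and ORC2 by 0.51 on the log2 scale. PRIM1, a subunit of primase, fell by 0.81 and GINS4 by 0.32. These 5 were named once their values were known. Of 46 other mitosis genes, 44 fell and none rose, with a median of −0.68, and 7 were called, led by CDCA3 (−1.31 ± 0.10 SE) and the cytokinesis kinesin KIF23 (−1.23 ± 0.04 SE). In hnRNPC cells on day 5 the counts were 19 lower and 6 higher of 43, and 26 lower and 7 higher of 46. KIF15, a spindle kinesin, had the lowest value there, at −1.52 on the log2 scale.

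Of 29 regulators of these genes tested, 16 fell and 10 rose in ADAR+hnRNPC cells on day 5, where 34.2% and 40.2% of all genes did. CDKN1A, which encodes the CDK inhibitor p21, was 2.69 ± 0.21 (SE) higher on the log2 scale, and in hnRNPC cells 1.27, 2.04 and 2.72 higher on days 3, 4 and 5. It was also higher in IFN-α cells (1.02 ± 0.20 SE) and in GFP cells on day 5 (0.84 ± 0.20 SE), and its interaction on day 5 did not pass (−0.24 ± 0.14 SE, adjusted p = 0.188). MYC, a transcription factor of growing cells, was lower by 1.10 in ADAR+hnRNPC and by 1.03 in hnRNPC cells on day 5, RB1, which restrains E2F factors, was 0.71 higher, and MYBL2, which encodes B-MYB, was lower by 0.64 in ADAR+hnRNPC cells. E2F8, a repressor of the E2F family, was lower by 0.73. The part of these regulators in the changes of the 40 genes was not tested.

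Reads within introns were counted in study 1, and 148 introns that lie inside 34 of the 40 genes and in no other gene passed the filter. In ADAR+hnRNPC cells on day 5, 96 of the 148 fell and 6 rose, where 28.4% of all 21838 introns tested fell, 15.9% rose and 11.9% were called. Of the member introns 24 were called lower and 3 higher, with a median log2 fold change of −0.70. All 10 introns of TOP2A fell, 6 of them called, with a median of −1.04. The 4 introns of MKI67 fell by 0.80 to 1.21 on the log2 scale, 3 of them called, although its exon count did not pass the test. The 5 introns of CDT1 lay between −0.18 and −0.02, while its exon count rose by 0.43.

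In hnRNPC cells on day 5, 16 of the 148 introns rose and 13 fell, where 14.9% and 11.8% of all introns did and 6.49% were called. The 4 that were called, all higher, lay in MCM3 (2 introns), MCM4 and CDT1, and 3 of them were near the threshold of 1 on the log2 scale. The count was 2 with DESeq2's size factors, 1 without CTRL day 5 replicate 2 and 2 without hnRNPC day 5 replicate 1. It was 9 without a filter, where more introns were tested. The MCM3 intron at chr6:52129585-52130872 (GRCh37) measured 10.2, 9.78 and 8.14 CPM in CTRL, 9.82, 9.37 and 7.70 CPM in ADAR, 27.0, 27.4 and 24.0 CPM in hnRNPC and 25.1, 24.2 and 22.1 CPM in ADAR+hnRNPC libraries. It was 1.48 ± 0.13 (SE) higher on the log2 scale in hnRNPC and 1.34 ± 0.13 (SE) higher in ADAR+hnRNPC cells. The MCM3 intron at chr6:52144398-52146842 measured 11.5, 10.6 and 10.7 CPM in CTRL and 22.3, 22.9 and 21.2 CPM in hnRNPC libraries (1.02 ± 0.19 SE). Exon counts of MCM3 were lower in the same libraries, and 7 of its 12 introns fell. Introns of ORC1 (1.49 ± 0.22 SE) and RRM1 (1.09 ± 0.22 SE) were also called higher in ADAR+hnRNPC cells. All 5 introns of CDT1 rose in hnRNPC cells, by 0.74 to 1.05, beside a gene change of 0.80, so that exons and introns of CDT1 rose together there.

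hnRNPC is known to bind runs of uridine in RNA. The longest run of T on the sense strand is shown in capitals for both MCM3 introns, with 30 bases on each side, from GRCh37.
MCM3 intron, chr6:52130216-52130285, minus strand: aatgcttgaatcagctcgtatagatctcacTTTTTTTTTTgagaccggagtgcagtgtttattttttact
MCM3 intron, chr6:52146445-52146515, minus strand: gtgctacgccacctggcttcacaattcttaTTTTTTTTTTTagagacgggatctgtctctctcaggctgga
Such runs were common in introns of these genes. A run of at least 9 bases was found in 6 of the 16 introns that rose in hnRNPC cells (37.5%) and in 65 of the other 132 (49.2%). The 16 were shorter, with a median length of 1050 bases against 1743 in the others. Per kilobase they held 0.78 such runs against 0.50, so that the 2 measures went in opposite directions. Neither difference was tested. The called introns of MCM4 and CDT1 held longest runs of 5 and 3 bases.

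Study 2 measured the same genes on day 4 in the wild-type clone. Its 2 CTRL libraries of total RNA stood apart, with 270 of 11392 genes more than 2-fold different between them, against 7 to 74 in the other groups. TYMS and MKI67 were among the 270. In total RNA of ADAR+hnRNPC cells, 20 of 40 genes fell and none rose, where 17.2% of all 13650 genes tested fell, 17.1% rose and 4.50% were called. The median log2 fold change was −0.31 for replication and −0.24 for mitosis genes, against −0.03 over all genes, and no gene was called. Without CTRL total replicate 1, 10 genes fell, and without CTRL total replicate 2, 24 fell.

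BUB1B measured 169.6 and 152 CPM in CTRL and 111 and 110.3 CPM in ADAR+hnRNPC total RNA (log2 fold change −0.54 ± 0.11 SE, adjusted p = 0.00173). CCNE1 measured 34.4 and 28.3 CPM in CTRL and 22.1 and 21.6 CPM in ADAR+hnRNPC libraries (−0.52 ± 0.11 SE), and PCNA 157 and 143 against 106 and 108 CPM (−0.49 ± 0.08 SE). MCM3 measured 725 and 626 CPM in CTRL, 488 and 589 CPM in hnRNPC and 476 and 498 CPM in ADAR+hnRNPC libraries. It fell in the last (−0.47 ± 0.14 SE). KIF20A fell from 214 and 159 CPM to 138 and 129 CPM (−0.48 ± 0.12 SE). In each of these genes both ADAR+hnRNPC libraries were below both CTRL libraries. These genes are named after their values were seen.

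Total RNA of single-targeted cells differed less. In hnRNPC cells 1 gene rose, CCNE2 (log2 fold change 0.39 ± 0.11 SE), and 1 fell, MKI67, where 2.81% of all genes rose, 4.37% fell and 0.637% were called. In ADAR cells 5 fell and none rose, where 5.82% fell, 8.07% rose and 2.81% were called. MKI67 (−1.27 ± 0.29 SE) and TYMS (−1.16 ± 0.35 SE) were called in ADAR cells and MKI67 (−1.03 ± 0.29 SE) in hnRNPC cells. MKI67 measured 459 and 1174 CPM in CTRL, 432 and 366 CPM in hnRNPC and 301 and 377 CPM in ADAR total RNA, and TYMS 33.9 and 91.0 CPM in CTRL and 25.5 and 30.5 CPM in ADAR total RNA. In ADAR+hnRNPC total RNA, the log2 fold change of MKI67 was 0.07, so that it did not fall in every targeted group. This value was taken against the same 2 CTRL libraries, at 459 and 1174 CPM, so that a level near CTRL cells cannot be read from it. The calls of MKI67 and TYMS rested on CTRL total replicate 2, which had the highest value of both genes in total RNA. Without it, none of the 40 was called in either comparison and none fell in ADAR cells.

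The cytosol-enriched fraction gave a like picture. In ADAR+hnRNPC cells 20 of 40 genes fell and CDC6 rose, where 20.1% of all genes fell, 23.2% rose and 7.94% were called, and 6 to 13 fell and none rose when any 1 library was left out. CDC6 also no longer passed without a filter on low counts. The median log2 fold change was −0.27 for replication and −0.23 for mitosis genes, against −0.04 over all genes. RRM2 measured 214 and 218 CPM in CTRL and 129.9 and 158 CPM in ADAR+hnRNPC cytosol (−0.59 ± 0.14 SE). TOP2A measured 1134 and 1039 CPM in CTRL and 778 and 794 CPM in ADAR+hnRNPC cytosol (−0.47 ± 0.08 SE). In ADAR cells 7 fell and none rose, where 9.79% fell, 16.9% rose and 4.74% were called, and 0 to 5 fell when 1 library was left out. The median in ADAR cytosol was −0.24 for replication and −0.15 for mitosis genes, against −0.03 over all genes. Averaged over the replication genes, log2 CPM was 6.99 and 7.08 in ADAR, 6.95 and 7.05 in ADAR+hnRNPC and 7.27 and 7.22 in CTRL cytosol. The lower level of replication genes in cytosol was thus not particular to ADAR+hnRNPC cells. In hnRNPC cells none passed, with 7 below 0.05 by unadjusted p, where 2.40% fell, 1.21% rose and 0.418% were called. DESeq2 gave 3 lower genes there and limma-voom 2.

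Levels of the genes differed between RNA fractions. Over the 4 gRNA groups, 13 genes were higher and 13 lower in cytosol-enriched than in total RNA, where 35.4% and 35.2% of all genes were and 10.5% were called, with no gene of the 40 called. With no filter on low counts 20 were higher and 5 lower. CENPF, a large kinetochore protein, was lowest in the cytosol, with 342 and 457 CPM in cytosol and 636 and 616 CPM in total RNA of CTRL cells (log2 fold change over the 4 groups −0.78 ± 0.08 SE). TYMS (0.82 ± 0.17 SE) and FOXM1 (0.61 ± 0.07 SE) were highest. For TYMS the 2 CTRL libraries of total RNA were more than 2-fold apart. Its SE stood against a median SE of 0.05 over the 40 genes, so that its rank is uncertain. FOXM1 measured 97.5 and 94.7 CPM in cytosol and 60.6 and 69.2 CPM in total RNA of CTRL cells, and no library of one fraction overlapped the other within CTRL cells. These genes were named once their values were known.

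In hnRNPC cells, 11 genes were higher and 13 lower in the cytosol-enriched than in the nuclear fraction, where 34.8% and 34.0% of all genes were and 26.1% were called. With no filter on low counts 17 were higher and 5 lower. CENPF was called, with 313 and 456 CPM in cytosol and 1122 and 954 CPM in the nuclear fraction (log2 fold change −1.43 ± 0.16 SE). MKI67 measured 831 and 864 CPM in cytosol and 1580.4 and 1754 CPM in the nuclear fraction (−0.98 ± 0.29 SE). In total RNA of hnRNPC cells it measured 432 and 366 CPM, below both fractions, so that these values cannot be read as its spread between compartments. CENPE was lower in cytosol by 0.73 on the log2 scale. FOXM1 (0.92 ± 0.13 SE), CCNA2, cyclin A2 (0.84 ± 0.09 SE), and BIRC5 (0.73 ± 0.12 SE) were higher in cytosol. Both sets held genes of each kind, with medians of −0.03 for replication and −0.01 for mitosis genes.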

How the data were processed

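The deposited counts of reads per gene and per intron were made by the authors from uniquely aligned reads, and the submitters' processing notes name STAR 2.5.4a, featureCounts, bedtools and GRCh37. Whether strand was used in counting is not given in the sources used here. The tables held 0 columns without a sample, and other deposited files were not used here. Each study was fitted apart in R 4.3.3 with edgeR 4.0.16 (TMM scale factors, quasi-likelihood test, Benjamini-Hochberg adjustment over all features tested, 1 coefficient per group), with limma 3.58.1 and DESeq2 1.42.0 as alternatives. Genes with an average log2 CPM of at least 0.5 were kept, 13193 of 57820 in study 1 and 13650 in study 2. Introns were kept from 1, and 21838 were tested with the library sizes of the gene counts. Called means a log2 fold change of 1 or more in either direction with an adjusted p not above 0.05. The interaction was fitted on the 12 libraries of a day. Steps were tested on simulated data.

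The 40 genes and the longer lists were chosen with earlier results of these data known. Named were, in each set, the 6 largest absolute changes in ADAR+hnRNPC and in hnRNPC cells on day 5, then E2F1, CCNE1, MCM2, PCNA, CCNB1, CDK1, MKI67 and FOXM1, and up to 6 genes called elsewhere. UHRF1 was not matched. Replicates of a group differed beyond counting noise, with a lowest chi-square per gene of 12.1 in study 1 and 13.1 in study 2. Replicate numbers paired the libraries in 8 of 14 comparisons of study 1, where every correlation between libraries of the same number was above 0.1. 1 marker gene is not reported here.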

Additional observations from a re-analysis of the deposited data

Results flagged for a closer look

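Effects that differed between days or between gRNA groups, by a test of the difference itself, were as follows. From day 3 to day 5 the hnRNPC effect moved down in 12 replication and 11 mitosis genes and up in 6 and 1. The ADAR+hnRNPC effect moved down in 18 replication and 17 mitosis genes and up in 1 replication gene, with the largest changes in RRM2 (−1.09 on the log2 scale) and PCNA (−1.02). The interaction between both gRNAs was negative in 2 replication and 5 mitosis genes and positive in 1 replication gene on day 4, and negative in 13 genes of each set on day 5.

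No group held 4 or more libraries, so that single libraries were not examined for distance from their group.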

How the results depend on the processing

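Of the counts of genes called, higher or lower, 836 values under another setting stayed within 1.5 times the main count and 141 did not. Counts are given as main count, then count under the setting. Without a filter on low counts, higher genes went from 10 to 4, 13 to 8 and 11 to 7 in hnRNPC cells on days 3, 4 and 5, from 11 to 2 in ADAR+hnRNPC cells on day 3, from 3 to 1 in GFP cells on day 5, from 9 to 4 with IFN-α, from 3 to 0 in CTRL cells from day 3 to day 5, from 7 to 4 and from 1 to 0 for the changes of the hnRNPC and ADAR+hnRNPC effects, from 1 to 0 in hnRNPC total RNA and in ADAR+hnRNPC cytosol, and from 13 to 20 and 11 to 17 in cytosol against total and nuclear RNA. Lower genes went from 0 to 1 in ADAR cells on day 4, 15 to 6 in ADAR cells on day 5, 0 to 1 and 1 to 0 in GFP cells on days 3 and 5, 2 to 1 with IFN-α, 7 to 4 in CTRL cells, 7 to 3 for the interaction on day 4, 1 to 2 in hnRNPC and 5 to 2 in ADAR total RNA, 0 to 1 in hnRNPC and 7 to 3 in ADAR cytosol, and 13 to 5 in both cytosol comparisons. Called genes went from 1 to 0 in hnRNPC total RNA and 1 to 3 in cytosol against nuclear RNA, and called introns from 4 to 9 and from 27 to 101. More introns than the 148 of the main count were tested without a filter, as all introns with a count entered.

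With the replicate block, which pairs libraries by number, lower genes went from 0 to 1 in ADAR cells on day 4, 4 to 7 in ADAR+hnRNPC cells on day 3, 1 to 3 in GFP cells on day 5, 2 to 6 with IFN-α, 7 to 18 for the interaction on day 4, 1 to 3 in hnRNPC total RNA and 0 to 2 in hnRNPC cytosol, and higher genes from 0 to 1 in ADAR cells on days 4 and 5 and for the interaction on day 5 and from 1 to 2 in ADAR+hnRNPC cytosol, while hnRNPC total RNA lost its called gene (0). With crossed numbers, an alternative chosen after seeing the data, hnRNPC total RNA held 0 called and 2 lower genes. Against GFP cells, 3 genes were lower in ADAR and 1 higher in ADAR+hnRNPC cells on day 5. With DESeq2's size factors, 1 gene was higher in GFP cells on day 5, 5 in CTRL cells, and 2 introns were called in hnRNPC cells. With DESeq2, 3 genes were lower in GFP cells on day 5, 5 higher in CTRL cells, 15 lower for the interaction on day 4, 1 higher on day 5, 4 lower in hnRNPC total RNA and 3 in hnRNPC cytosol. With all libraries in the model the interaction gave 15 lower on day 4 and 1 higher on day 5. With limma-voom, hnRNPC total RNA held 0 called and 0 lower, ADAR total RNA 1 called and 2 lower, and hnRNPC cytosol 2 lower.

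With 1 library left out, lower genes ranged from 6 to 15 in ADAR cells on day 5, 4 to 7 in ADAR+hnRNPC cells on day 3, 0 to 4 in GFP cells on day 5 (higher 0 to 4), 0 to 2 with IFN-α, 1 to 12 for the interaction on day 4 (higher 0 to 1), 0 to 4 in hnRNPC total RNA (higher 0 to 6, called 0 to 2), 0 to 5 in ADAR total RNA (called 0 to 2), 9 to 24 in ADAR+hnRNPC total RNA (higher 0 to 2), 0 to 2 in hnRNPC cytosol (higher 0 to 1), 0 to 5 in ADAR cytosol and 6 to 13 in ADAR+hnRNPC cytosol (higher 0 to 0, called 0 to 1). Higher genes in CTRL cells ranged from 1 to 4, called genes from 1 to 3 for the change of the ADAR+hnRNPC effect, 0 to 1 in cytosol against total and 1 to 2 against nuclear RNA, and called introns in hnRNPC cells from 1 to 6. The log2 fold changes of CDK1 and MKI67 in hnRNPC cells on day 5, neither of which passed the test, changed sign. Without a filter, CDK1 was at −0.020 and MKI67 at −0.034. With 1 library left out, CDK1 ranged from −0.012 to 0.081, lowest without hnRNPC day 5 replicate 2, and MKI67 from −0.12 to 0.17, lowest without hnRNPC day 5 replicate 3. In the gene fits without a filter, the scale factors were also computed anew, over all genes with any count. The median shift of the listed genes in these fits, 169 in study 1 and 168 in study 2, was between −0.10 and 0.24 on the log2 scale. The cause of these differences was not tested.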
